A study of Mus musculus with 48 samples.

Results

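The genes described here are Dppa2, Dppa3, Dppa4, Dppa5a, Utf1 and L1td1, a set of transcripts typical of pluripotent mouse cells. They were taken by symbol from the gene IDs (without the version suffix) of the 3 deposited count tables, which gave 6 of the 54752 genes that each table lists. All 6 were found in all 3 tables.

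Mouse embryonic stem cells (ESCs) express these genes while they are undifferentiated, and most are shut down when the cells leave that state. DPPA2 and DPPA4 bind chromatin as a pair, keep developmental promoters free of DNA methylation and activate genes of the two-cell embryo. DPPA3, also called Stella, protects the maternal genome of the zygote from losing methylation, and it also binds UHRF1 and keeps it off chromatin. UTF1 is a chromatin protein of undifferentiated cells, DPPA5A carries an RNA-binding KH domain, and L1TD1 is an RNA-binding protein that descends from the first open reading frame of the LINE-1 transposon.

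Nascent RNA was measured as RNA that had taken up 4-thiouridine (4SU), a uridine analogue, during a pulse of 30 min in cycling cells and 15 min in synchronized cells. All cells were mouse ESCs grown in L2i medium. Each of 24 groups held 2 libraries. The labels do not state that these were grown as separate cultures, and the spread behind each p-value may therefore be technical.

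Cycling FOXD3-iKO cells, in which FOXD3 can be removed on induction, received 4-hydroxytamoxifen (4HT) or the solvent ethanol for 8, 14, 24 or 32 h. Cycling OCT4-tetOff cells received doxycycline (DOX), which depletes OCT4, or water for 16 or 24 h. FOXD3-iKO cells were also arrested by a double thymidine block, released 24 h after 4HT or ethanol, and sampled at 0, 1, 2, 3, 4 and 5 h of release. The recombinase, the promoters behind both systems and the number of clones are not stated in the labels. FOXD3 is a forkhead transcription factor and OCT4, encoded by Pou5f1, a POU transcription factor, both known from pluripotent cells.

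The libraries held between 21827951 and 30406124 counts in cycling FOXD3-iKO cells, between 21113158 and 26112435 in OCT4-tetOff cells and between 7953841 and 17936504 in synchronized cells. A floor of 3 counts stood at 0.0987 to 0.137, 0.115 to 0.142 and 0.167 to 0.377 CPM (read counts scaled to a common library size) in the same order, and such floors cover counting error only. The annotated genes Gm26917 and Gm42418, known to collect ribosomal RNA reads, took 12.5% to 37.1%, 18.1% to 43.05% and 3.41% to 25.4% of the counts. At 32 h they took 13.9% and 12.5% in 4HT libraries, against 14.3% and 28% in ethanol libraries. Foxd3 changed by -1.33 to -1.63 on the log2 scale with 4HT in cycling cells and by -1.84 in synchronized cells, with adjusted p of 0.386, 0.145, 0.0191 and 0.00286 at 8, 14, 24 and 32 h and 7.05e-09 in synchronized cells (edgeR). Pou5f1 changed by -1.496 and -1.83 with DOX at 16 and 24 h (adjusted p 7.26e-05 and 1.06e-05), and Foxd3 was lower there too, by -1.93 and -3.12. Of 7 ESC marker genes 6 had counts and Sox2 was listed at 0 in all libraries, so Sox2 was not usable. In the 4 DOX libraries the summed ESC markers lay between 953 and 1447 CPM, against 2665 to 3022 in the 4 water libraries.

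Dppa4 (ENSMUSG00000058550.15) and Dppa2 (ENSMUSG00000072419.5) are neighbours on chromosome 16 of mm10, at chr16:48283733-48294237 and chr16:48303908-48319723, both on the plus strand. A gap of 9670 bases without an annotated gene separates them. Dppa3 (ENSMUSG00000046323.8) lies at chr6:122626410-122630272 on the plus strand, and Dppa5a (ENSMUSG00000060461.5) at chr9:78367052-78368177 on the minus strand. Utf1 (ENSMUSG00000047751.9) lies at chr7:139943789-139945112 and L1td1 (ENSMUSG00000087166.9) at chr4:98726734-98738480, both on the plus strand. None of these intervals overlaps another gene of the tables. The counted interval runs from the first to the last base of the gene, introns included, and spans 1126 bases for Dppa5a, 1324 for Utf1, 3863 for Dppa3, 10505 for Dppa4, 11747 for L1td1 and 15816 for Dppa2.

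Promoter sequences of Utf1 and L1td1, both called lower on OCT4 depletion, were taken from RefSeq (GRCm38.p6), from 250 bases before the start site to 50 after it, and are shown for the 2 of the 6 members that matched the promoter table. They span chr7:139943606-139943905 and chr4:98726504-98726803, plus strand, and capitals mark every match to 6 short motifs that were searched on both strands.
Utf1: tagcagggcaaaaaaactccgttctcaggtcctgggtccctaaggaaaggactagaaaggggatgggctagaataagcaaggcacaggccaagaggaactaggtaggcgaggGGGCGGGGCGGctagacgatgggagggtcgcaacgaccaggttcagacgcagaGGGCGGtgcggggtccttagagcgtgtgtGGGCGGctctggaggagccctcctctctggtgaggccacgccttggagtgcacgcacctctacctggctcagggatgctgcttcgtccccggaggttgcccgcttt
L1td1: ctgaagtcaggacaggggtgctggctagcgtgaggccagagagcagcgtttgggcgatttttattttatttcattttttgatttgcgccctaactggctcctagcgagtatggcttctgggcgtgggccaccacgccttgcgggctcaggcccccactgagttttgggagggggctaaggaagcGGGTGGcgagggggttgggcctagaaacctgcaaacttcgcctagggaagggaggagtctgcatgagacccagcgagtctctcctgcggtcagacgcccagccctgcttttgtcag
The Utf1 window holds 4 matches to the GC box GGGCGG, of which the 2 most upstream share 1 base. They begin 138, 133, 85 and 56 bases before the start site, and 35.7% of 32851 promoters hold at least 1 such match. The L1td1 window holds 1 match to the KLF core CCACCC, on the minus strand, a motif that 31.5% of promoters hold. The octamer ATGCAAAT, the SOX cores ACAATG and ACAAAG and the forkhead core TAAACA have no match in either window, and 1.74%, 12.6%, 18.7% and 13.4% of all promoters hold them in that order.

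Levels were compared between genes as CPM, scaled by trimmed means (TMM), per kilobase of the interval. In cycling 4HT-treated FOXD3-iKO cells Dppa5a averaged 21.2 ± 4.81 and L1td1 20.3 ± 1.83 CPM per kb (SD, n = 8), and the ranges of these genes overlapped. Utf1 followed at 7.35 ± 1.43, Dppa2 at 4.78 ± 1.25 and Dppa4 at 3.37 ± 0.493 CPM per kb, each overlapping the next, and Dppa3 was lowest at 0.894 ± 0.160 without overlap with Dppa4. Ethanol cells gave the same order, and so did the 4 water-treated OCT4-tetOff libraries. The DOX-treated cells had another order of CPM per kb, with Dppa5a at 6.00 ± 2.34, Dppa2 at 4.45 ± 0.522, L1td1 at 3.92 ± 0.612, Dppa4 at 2.04 ± 0.139, Utf1 at 0.543 ± 0.424 and Dppa3 at 0.0341 ± 0.00599 (SD, n = 4). There the first 3 overlapped each with its neighbour, and the other neighbours did not. In synchronized 4HT cells Dppa5a stood clear of L1td1, at 43.1 ± 6.06 against 28.2 ± 1.77 CPM per kb (SD, n = 12), and Dppa2, Utf1 and Dppa4 overlapped in a chain below them. These tables were normalized separately and had different pulse lengths, so no level was tested across them.

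With OCT4 depleted, L1td1, Utf1 and Dppa5a fell several-fold and Dppa4 slightly, while Dppa2 did not pass the test. At 16 h the calls were 4 of the 5 members tested, all lower, where 8.91% of all genes tested were called lower. At 24 h they were again 4 of 5, all lower, against 18.7% of genes. Here called means an adjusted p (Benjamini-Hochberg, over all genes tested in a table) under 0.05 in edgeR's quasi-likelihood test. The median log2 change of the 5 members tested was -1.36 at 16 h and -2.43 at 24 h, against -0.0021 and -0.0074 over all genes. Dppa3 did not pass the filter on low counts in this table. Less RNA made per cell and fewer ESCs in the dish cannot be told apart in such bulk samples.

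L1td1 had 53.05 and 51.4 CPM in the DOX libraries of 16 h, against 224 and 229.9 CPM in the water libraries. At 24 h it had 41.3 and 38.7 CPM with DOX, against 224 and 206 CPM with water. The DOX libraries lay below the water libraries at both times, with no overlap. Such separation of 2 libraries from 2 held for 46.4% of all genes at 32 h of 4HT. Its share over all genes with DOX is not given here. The log2 change of L1td1 was -2.12 ± 0.10 (SE; adjusted p 4.76e-06, edgeR) at 16 h and -2.43 ± 0.10 (adjusted p 8.25e-07) at 24 h, which leaves 23.0% and 18.6% of the level with water. By p-value L1td1 ranked 13 of 17713 genes at 16 h and 24 at 24 h.

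Utf1 was the member with the largest fold change under DOX. It had 31 and 29 counts (1.26 and 1.13 CPM) with DOX at 16 h, against 154 and 170 counts (7.49 and 9.35 CPM) with water. At 24 h it had 11 and 3 counts (0.378 and 0.111 CPM) with DOX, against 129 and 114 counts (5.10 and 5.33 CPM) with water. The lower of these DOX libraries was at the floor of 3 counts. The log2 change of Utf1 was -2.81 ± 0.25 (adjusted p 7.65e-05, edgeR) at 16 h and -4.36 ± 0.33 (adjusted p 1.55e-05) at 24 h. From summed counts, Utf1 was at 15.9% of the water level at 16 h (95% counting interval 11.8% to 21.0%) and at 4.98% at 24 h (2.68% to 8.51%). Ordered from the lowest log2 change, Utf1 ranked 97 of 17713 genes at 16 h and 45 at 24 h.

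Dppa5a fell too. It had 7.13 and 10.2 CPM with DOX at 16 h, against 24.5 and 20.1 CPM with water, and 5.73 and 3.95 CPM with DOX at 24 h, against 30.4 and 24.3 CPM with water. The groups did not overlap at either time, and the share of all genes that did so is not given. The log2 change was -1.36 ± 0.21 (adjusted p 0.00224, edgeR) at 16 h and -2.49 ± 0.22 (adjusted p 3.81e-05) at 24 h. The genome copies Dppa5b and Dppa5c, whose reads could be shared with Dppa5a, had no more than 1 count in any library.

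The neighbours Dppa4 and Dppa2 differed in size of change. Dppa4 had 22.0 and 21.5 CPM with DOX at 16 h, against 28.8 and 28.4 CPM with water, and 22.9 and 19.5 CPM with DOX at 24 h, against 29.2 and 27.1 CPM with water. The DOX libraries lay below the water libraries at both times, as those of Dppa2, which was not called, did at 16 h. The log2 change of Dppa4 was -0.40 ± 0.10 (adjusted p 0.0289, edgeR) at 16 h and -0.41 ± 0.10 (adjusted p 0.0129) at 24 h. These calls were lost with scaling by total counts (adjusted p 0.293 at 16 h and 0.0759 at 24 h, edgeR) and in the 16 h comparison without any 1 of its 4 libraries (adjusted p 0.137 to 0.189) or with total counts outside the ribosomal RNA genes (adjusted p 0.105). At 24 h the Dppa4 call was lost without DOX replicate 2 (adjusted p 0.0601, edgeR), without water replicate 1 (adjusted p 0.0786) and with only the 24 h groups in the fit (adjusted p 0.0572). Dppa2 had 72.6 and 73.0 CPM with DOX at 16 h, against 76.5 and 81.7 CPM with water, and 77.4 and 58.4 CPM with DOX at 24 h, against 77.5 and 64.7 CPM with water. Its log2 change was -0.12 ± 0.14 (adjusted p 0.629, edgeR) at 16 h and -0.07 ± 0.14 (adjusted p 0.736) at 24 h. The DOX libraries of Dppa2 lay below the water libraries at 16 h and overlapped them at 24 h.

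Dppa3 was close to the floor in OCT4-tetOff cells whatever the treatment. It had 4 and 3 counts with DOX at 16 h, against 5 and 11 counts with water, and 4 and 3 counts with DOX at 24 h, against 5 and 5 counts with water. The summed Dppa3 counts with DOX were 37.5% of those with water at 16 h, with a 95% counting interval from 13.1% to 96.4%. At 24 h the interval ran from 19.5% to 176%, so a difference was not detectable at this depth. Without the filter the log2 change of Dppa3 was -1.55 ± 0.71 (adjusted p 0.174, edgeR) at 16 h and -0.76 ± 0.79 (adjusted p 0.633) at 24 h. In solvent-treated cells Dppa3 stood at 0.210 and 0.235 CPM, scaled by total counts alone, in water-treated OCT4-tetOff cells of 24 h, against 2.63 and 2.72 CPM in ethanol-treated FOXD3-iKO cells of 24 h. The mean in the FOXD3-iKO cells was 12.02-fold higher, a difference that was not tested. Utf1 was 2.48-fold higher in the ethanol cells on this scale, and the other members lay within 0.859-fold and 1.15-fold. Line, solvent and table differ together in this comparison and cannot be told apart.

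**Figure D1:**
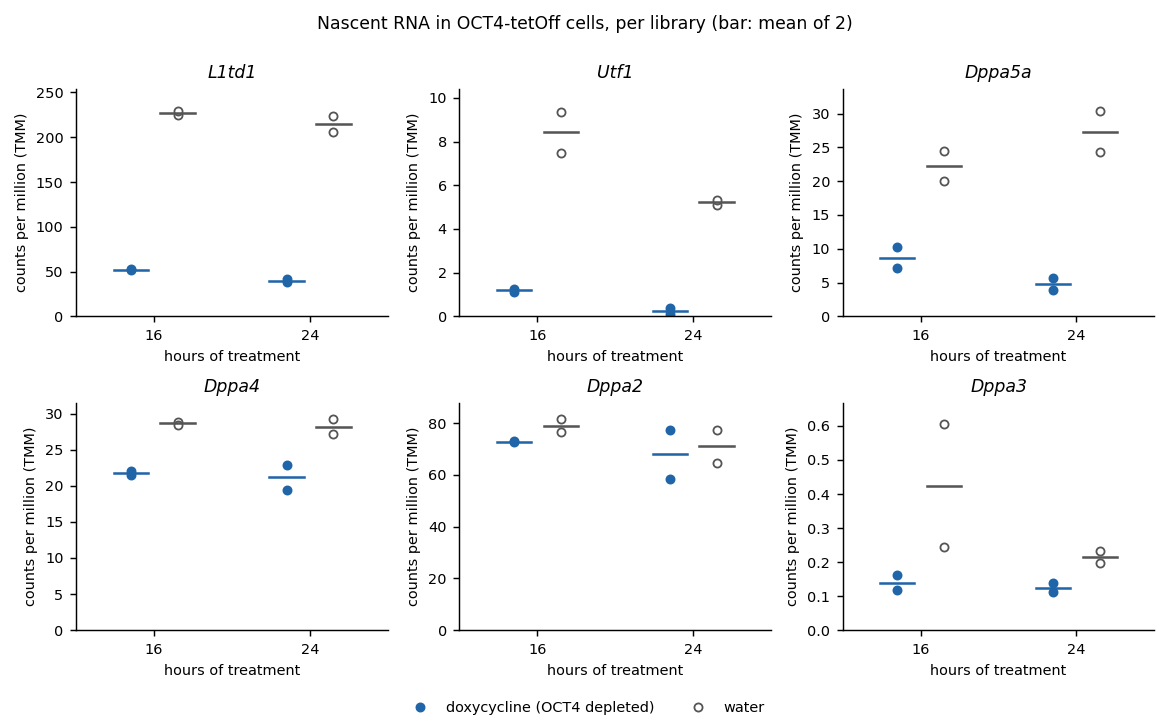
CPM (TMM) of each member in OCT4-tetOff cells by hours of treatment, on an axis from 0. Filled points are DOX libraries, open points water libraries and bars the mean of 2. L1td1, Utf1 and Dppa5a lie far below water at both times, Dppa4 slightly below, and Dppa2 overlaps at 24 h.

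None of the log2 changes differed between 24 and 16 h of DOX past the threshold. No member was called, and neither was any of 17713 genes, a share of 0%, although 1952 genes (11%) and 2 members had an unadjusted p under 0.05 in edgeR. The log2 response was larger at 24 h by -1.55 ± 0.47 for Utf1 (adjusted p 0.298, edgeR) and by -1.13 ± 0.31 for Dppa5a (adjusted p 0.246). Both were called when no low-count filter was applied (adjusted p 0.0279 and 8.56e-05, edgeR). That setting called 457 genes, where the reported fit called 0, so these calls go with a change in the whole fit. L1td1 differed by -0.31 ± 0.14 (adjusted p 0.462, edgeR), Dppa4 by -0.01 ± 0.15 and Dppa2 by 0.05 ± 0.20.

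Markers of some other lineages moved with these falls, while the sums of germline and two-cell-like markers overlapped between the treatments. The summed trophectoderm markers, 8 of 8 with counts, lay between 124 and 155 CPM in the DOX libraries, against 56.6 to 77.0 CPM in the water libraries. The summed primitive endoderm markers, 7 of 7 with counts, lay between 27.8 and 60.0 CPM with DOX, against 11.8 to 14.5 CPM with water. Fibroblast markers summed to 10.2 to 11.6 CPM with DOX, against 6.77 to 8.62 CPM with water, with Lum at 0 in the DOX libraries. Germline markers summed to 53.3 to 71.1 CPM with DOX, against 53.7 to 63.2 CPM with water. Two-cell-like markers summed to 2.70 to 3.81 CPM, against 3.14 to 4.43 CPM. At 24 h 4 of 7 trophectoderm, 4 of 5 primitive endoderm and 1 of 3 fibroblast markers tested were called higher. Of 6 germline markers 3 were called higher and 1 lower, and of 4 two-cell-like markers 0 and 1. Among 17713 genes 6531 were called, 49.2% of them higher. The part of these markers in the results was not tested.

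Genes of at most 2 kb, which include Utf1 and Dppa5a, had a median log2 change with DOX of -0.13 at 16 h and -0.50 at 24 h, with 6.23% and 28.8% of them called lower. The log2 changes of Utf1 and Dppa5a lay further below 0 than these medians at both times.

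In cycling FOXD3-iKO cells no member passed the test up to 24 h of 4HT, and at 32 h Utf1 was lower. No member was called at 8 h, 14 h or 24 h, where 0.0107%, 0.016% and 0.481% of 18707 genes were called in either direction. At an unadjusted p under 0.05, edgeR gave 0 members at 8 h, 0 at 14 h and 2 at 24 h (Dppa2 and Dppa3, both higher), against 2.82%, 4.01% and 8.44% of genes. At 32 h 1 of the 6 was called, lower, where 4.59% of genes were called lower and 9.47% in either direction. The median log2 change of the 6 members at 32 h was -0.06, against -0.05 over all genes.

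Utf1 had 9.31 and 8.84 CPM in 4HT libraries of 32 h, against 11.7 and 16.2 CPM in ethanol libraries. At 24 h it had 12.4 and 12.1 CPM with 4HT, against 13.5 and 14.3 CPM with ethanol. Its 4HT libraries lay below the ethanol libraries at both times and overlapped them at 8 and 14 h. At 32 h 46.4% of all genes had groups that did not overlap, and the share at 24 h is not given. The log2 change of Utf1 was -0.62 ± 0.18 (adjusted p 0.0452, edgeR) at 32 h and -0.18 ± 0.17 (adjusted p 0.905) at 24 h. The 32 h call of Utf1 did not hold without ethanol replicate 2, the library with the larger share of ribosomal RNA reads (log2 change -0.37, adjusted p 0.242, edgeR), nor without 4HT replicate 1 (adjusted p 0.161) or 4HT replicate 2 (adjusted p 0.234). It was also lost with the replicate number as a block (adjusted p 0.0610, edgeR) and with only the 32 h groups in the fit (adjusted p 0.290). The same held with total counts (adjusted p 0.103) or outside the ribosomal RNA genes (adjusted p 0.127). With the trend over gene length removed from each library the log2 change of Utf1 was -0.26 (adjusted p 0.248, edgeR), and genes of at most 2 kb had a median log2 change of -0.36 at 32 h, 12.2% of them called lower.

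Dppa5a had 16.7 and 15.9 CPM with 4HT at 32 h, against 19.8 and 25.4 CPM with ethanol. The groups did not overlap, as for 46.4% of all genes, and the log2 change of -0.47 ± 0.16 did not pass the test (adjusted p 0.0792, edgeR). Without ethanol replicate 1 the log2 change of Dppa5a was -0.64, with ethanol replicate 2, at 28% ribosomal RNA reads, the only control of 32 h. Dppa5a was called without the low-count filter (-0.43, adjusted p 0.0166, edgeR), where 2189 genes were called, against 1771. Genes of at most 2 kb, Dppa5a among them, had a median log2 change of -0.36 at 32 h. At 24 h Dppa5a had 22.4 and 27.96 CPM with 4HT, against 30.5 and 25.3 CPM with ethanol, which overlapped. At 8 h the order was the opposite, with 26.8 and 25.5 CPM with 4HT, against 22.0 and 22.9 CPM with ethanol. The test of a response of Dppa5a that differs between the 4 times gave an unadjusted p of 0.0427 and an adjusted p of 0.490 (edgeR).

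Dppa2 leaned the other way. It had 75.7 and 88.3 CPM with 4HT at 24 h, against 64.1 and 67.5 CPM with ethanol, and 99.6 and 100.4 CPM with 4HT at 32 h, against 77.3 and 87.6 CPM with ethanol. Within each of these times both 4HT libraries lay above both ethanol libraries. At 32 h 46.4% of all genes had non-overlapping groups, and the share at 24 h is not given. The log2 change was 0.32 ± 0.11 (adjusted p 0.349, edgeR) at 24 h and 0.28 ± 0.11 (adjusted p 0.132) at 32 h, so Dppa2 was not called. With scaling by total counts Dppa2 was called higher at 32 h (log2 change 0.45, adjusted p 0.0286, edgeR), a scaling that shifts the median of all genes by 0.17 in that comparison. It was also called with the length trend removed (0.33, adjusted p 0.00815).

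Dppa4, L1td1 and Dppa3 did not pass the test at any time. Dppa4 had 41.6 and 41.9 CPM with 4HT at 32 h, against 39.2 and 39.8 CPM with ethanol, a log2 change of 0.08 ± 0.07 (adjusted p 0.572, edgeR). L1td1 had 260.4 and 259 CPM with 4HT at 32 h, against 296 and 294 CPM with ethanol, a log2 change of -0.18 ± 0.09 (adjusted p 0.230). Both had groups that did not overlap at 32 h, as had 46.4% of all genes. Dppa3 had 4.19 and 3.30 CPM with 4HT at 24 h, against 2.72 and 2.84 CPM with ethanol, a log2 change of 0.42 ± 0.18 (unadjusted p 0.0343, adjusted p 0.526, edgeR). This was the largest log2 change of the 6 members at 24 h. The 4HT libraries lay above the ethanol libraries, and the share of all genes that separated at 24 h is not given. At 32 h Dppa3 overlapped, with 2.62 and 3.06 CPM with 4HT, against 2.57 and 2.86 CPM with ethanol.

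The responses to 4HT did not differ between times past the threshold for any member. The joint test over 8, 14, 24 and 32 h called 0 of the 6, with 1 at an unadjusted p under 0.05, where 0.454% of genes were called and 9.63% had such an unadjusted p. The difference between the responses at 32 h and 24 h was called for 0 of 18707 genes (0%) in edgeR, with 1395 (7.46%) at an unadjusted p under 0.05 and no member among these. Within ethanol cells, 32 h against 24 h, no member was called where 5.38% of genes were. L1td1 was nearest there, with 296 and 294 CPM at 32 h, against 238 and 243 CPM at 24 h, a log2 change of 0.30 ± 0.09 (adjusted p 0.0712, edgeR). Without ethanol replicate 2 of 32 h the log2 change was 0.30 for L1td1 and -0.50 for Dppa5a. L1td1 was called in DESeq2 (adjusted p 0.00445), where 1392 genes were called, against 1006 in the reported fit.

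Trophectoderm markers summed to 73.2 to 89.3 CPM in the 8 cycling 4HT libraries, against 48.1 to 72.6 CPM in the 8 ethanol libraries, with 8 of 8 detected. Primitive endoderm markers summed to 36.2 to 50.5 CPM with 4HT, against 24.0 to 40.3 CPM with ethanol, with 7 of 7 detected. At 32 h 2 of 7 trophectoderm markers tested were called higher and 0 lower, with a median log2 change of 0.13. Of 5 primitive endoderm markers tested 3 were called higher and 0 lower, where 4.88% of all genes were called higher. The ESC markers overlapped, at 2167 to 2801 CPM with 4HT, against 2260 to 2790 CPM with ethanol. Their part in the changes of Utf1 and Dppa2 was not tested.

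**Figure D2:**
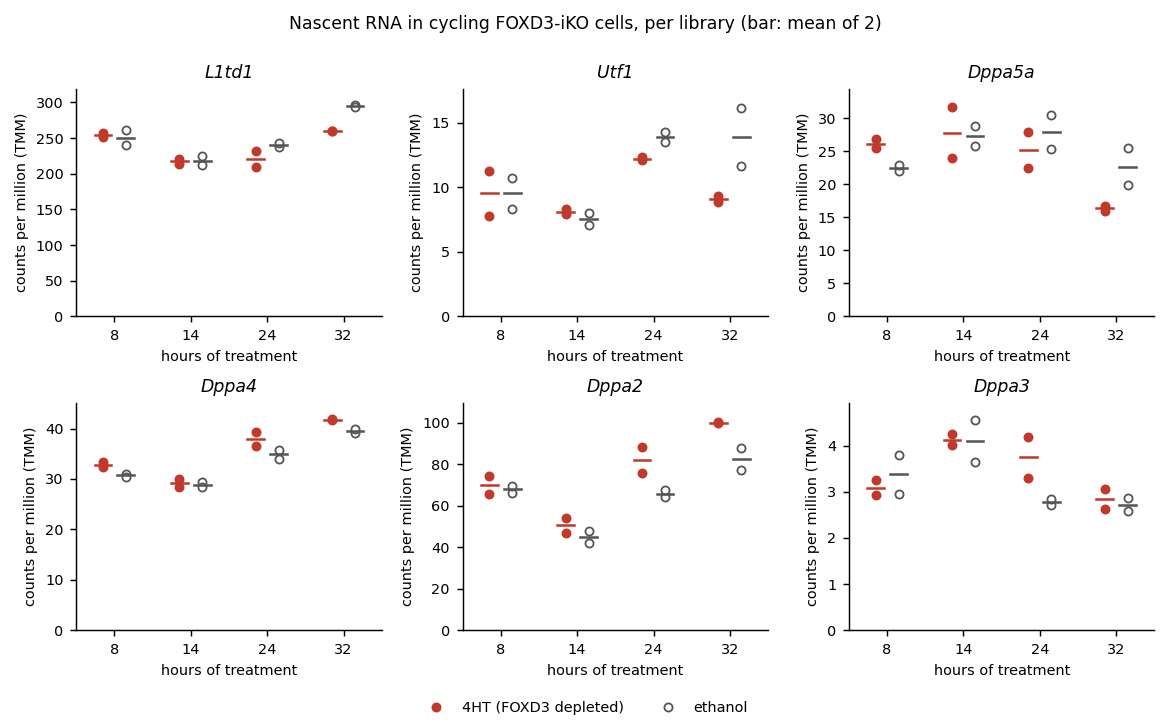
CPM (TMM) of each member in cycling FOXD3-iKO cells by hours of treatment, on an axis from 0. Filled points are 4HT libraries, open points ethanol libraries and bars the mean of 2. Utf1 and Dppa5a lie below ethanol at 32 h, and Dppa2 lies above it at 24 and 32 h.

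The responses to FOXD3 and OCT4 depletion at 24 h were compared by fitting the 8 libraries of 24 h from both tables at once. The 4HT response was higher than the DOX response for 4 of 6 members, where 9.07% of 18437 genes differed in that direction. The log2 difference was 4.18 ± 0.35 for Utf1 (adjusted p 5.07e-05, edgeR), 2.35 ± 0.27 for Dppa5a (adjusted p 0.000295) and 2.31 ± 0.17 for L1td1 (adjusted p 2.47e-05). Dppa4 differed by 0.54 ± 0.15 (adjusted p 0.0391, edgeR), a call lost in DESeq2 (adjusted p 0.0722), under total-count scaling (adjusted p 0.0950), outside the ribosomal RNA genes (adjusted p 0.0686), without the low-count filter (adjusted p 0.0549) and without any 1 of 6 of the 8 libraries (all 4 FOXD3-iKO libraries, DOX replicate 2 and water replicate 1; adjusted p 0.0765 to 0.162). Dppa2 differed by 0.39 ± 0.21 (adjusted p 0.241, edgeR), and by 0.61 without DOX replicate 1. Dppa3 differed by 1.19 ± 0.61 (adjusted p 0.236, edgeR), with Dppa3 near the floor in OCT4-tetOff cells. The libraries come from separate lines and tables, so line and treatment differ together in this difference of responses.

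**Figure D3:**
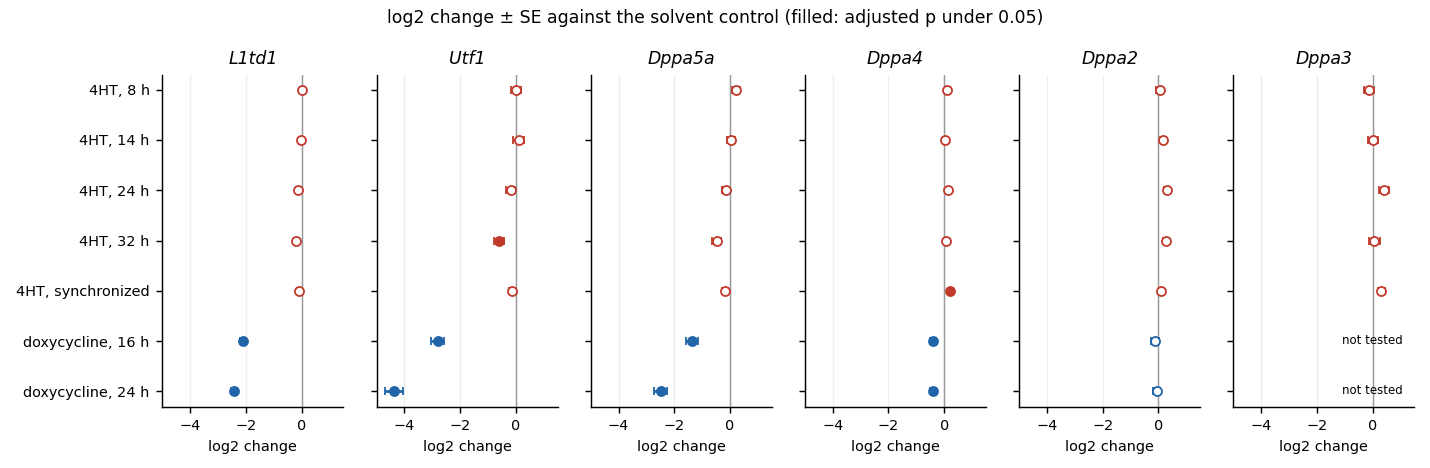
log2 change of each member, treatment against solvent, with bars of 1 SE, for 7 comparisons from top to bottom. Filled points have an adjusted p under 0.05 in edgeR. L1td1, Utf1, Dppa5a and Dppa4 are called lower with DOX at both times. Utf1 is called lower with 4HT at 32 h and Dppa4 higher with 4HT in synchronized cells. Scaling by total counts removes every Dppa4 call and the Utf1 call with 4HT at 32 h.

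In synchronized cells, 24 h after 4HT plus 0 to 5 h of release, Dppa4 was the member called over the 6 times together. This was 1 of 6, higher, where 18.6% of 17739 genes were called higher and 37% in either direction. Dppa4 lay between 55.8 and 68.2 CPM with a median of 60.1 in the 12 4HT libraries, against 44.4 to 58.5 CPM with a median of 52.3 in the 12 ethanol libraries. The ranges overlapped, and by time the log2 change was 0.39 at 0 h, 0.22 at 1 h, 0.25 at 2 h, 0.15 at 3 h, 0.27 at 4 h and 0.02 at 5 h. Over all times it was 0.22 ± 0.04 (adjusted p 0.000262, edgeR). With scaling by total counts it was 0.01 (adjusted p 0.920) and with total counts outside the ribosomal RNA genes 0.05 (adjusted p 0.509). Those scalings shift the median of all genes by -0.21 and -0.16, and the share of called genes that were higher is 9.64% and 17.3% under them, against 50.3%.

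L1td1 lay between 285 and 367 CPM with a median of 333 in 4HT libraries, against 279 to 394 CPM with a median of 361 in ethanol libraries. Its log2 change was -0.11 ± 0.04 (adjusted p 0.0504, edgeR), on the edge of the threshold. Dppa3 lay between 1.57 and 5.67 CPM with a median of 3.27 in 4HT libraries, against 2.08 to 3.35 CPM with a median of 2.43 in ethanol libraries, a log2 change of 0.31 ± 0.13 (adjusted p 0.0562). Dppa2 lay between 127 and 166 CPM in 4HT libraries, against 124 to 141 CPM in ethanol libraries, a log2 change of 0.08 ± 0.04 (adjusted p 0.0893, edgeR) that turns to -0.13 with total counts. These ranges overlapped, and none of the 3 genes passed the test. L1td1 passed without 4HT replicate 1 of 0 h, 4HT replicate 2 of 1 h or ethanol replicate 2 of 0 h. Dppa3 passed without any 1 of 8 libraries, namely 4HT replicate 1 of 0, 3 or 4 h, 4HT replicate 2 of 4 or 5 h, ethanol replicate 1 of 3 or 4 h and ethanol replicate 2 of 4 h. L1td1 was called lower with total counts (-0.32, adjusted p 0.000967, edgeR). Dppa3 was at 0.10 with total counts (adjusted p 0.559) and at 0.15 outside the ribosomal RNA genes (adjusted p 0.379). With the length trend removed Dppa3 was called higher (0.48, adjusted p 0.00776).

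Utf1 and Dppa5a spread more in ethanol than in 4HT libraries. Utf1 lay between 7.60 and 11.04 CPM in 4HT libraries, against 7.16 to 17.1 CPM in ethanol libraries, and Dppa5a between 35.8 and 61.9 CPM, against 43.2 to 74.0 CPM. The highest value of both genes was ethanol replicate 1 at 3 h, followed for both by ethanol replicate 1 at 5 h. These libraries had 25.4% and 24.4% of their counts in the ribosomal RNA genes, while their partners, replicate 2 at 3 and 5 h, had 4.77% and 3.83% and 8.54 and 9.73 CPM of Utf1. The 4HT libraries of 0 to 2 h had 15.6% to 21.1% in these genes and 7.60 to 11.04 CPM of Utf1. The part of this share in the results was not tested. Over the 6 times together the log2 change was -0.14 ± 0.12 for Utf1 (adjusted p 0.354, edgeR) and -0.18 ± 0.10 for Dppa5a (adjusted p 0.145). Both were called lower with total-count scaling, at -0.34 (adjusted p 0.0132) and -0.39 (adjusted p 0.00239).

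Trophectoderm markers summed to 49.0 to 77.4 CPM in synchronized 4HT libraries, against 31.1 to 53.4 CPM in ethanol libraries. Of 7 tested 2 were called higher and 1 lower, with a median log2 change of 0.01. Primitive endoderm markers summed to 79.99 to 133 CPM with 4HT, against 53.4 to 93.2 CPM with ethanol. Of 4 tested 2 were called higher and 0 lower. The ESC markers summed to 2945 to 3538 CPM with 4HT, against 2670 to 3240 CPM with ethanol. Of 6 tested 2 were called higher and 0 lower. Among all genes 18.6% were called higher. The part of these markers in the Dppa4 result was not tested.

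Over release from the block 1 of the 6 members was called, near the share of all genes. This was Dppa3 in 4HT cells, where 15.4% of genes were called. It had 3.49 and 5.67 CPM at 0 h, 4.04 and 3.73 at 1 h, 3.605 and 3.12 at 2 h, 1.98 and 3.41 at 3 h, 1.83 and 1.57 at 4 h and 3.04 and 2.17 at 5 h. The libraries of 4 h, with 18 and 15 counts, were the lowest, and the log2 change of Dppa3 from 0 h to 4 h was -1.39 (adjusted p over all times 0.0357, edgeR). The call was lost without any 1 of 8 of the 12 libraries, namely replicate 2 of 0 or 5 h and either replicate of 1, 2 or 4 h (adjusted p 0.0510 to 0.125), and with total-count scaling (adjusted p 0.0564). In ethanol cells no member was called over release, where 19.4% of genes were, and 1 member had an unadjusted p under 0.05 in edgeR, as had 36.6% of genes. The largest log2 change of Utf1 from 0 h there was 0.84, and 0.87 or 1.33 without ethanol replicate 1 or 2 of 3 h. That of Dppa5a was 0.49, and 0.80 without replicate 2 of 3 h. Without replicate 2 the only 3 h library had 25.4% of its counts in the ribosomal RNA genes. The response to 4HT did not differ between release times for any member or for any of 17739 genes (0%), with 883 genes (4.98%) and 0 members at an unadjusted p under 0.05 in edgeR.

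**Figure D4:**
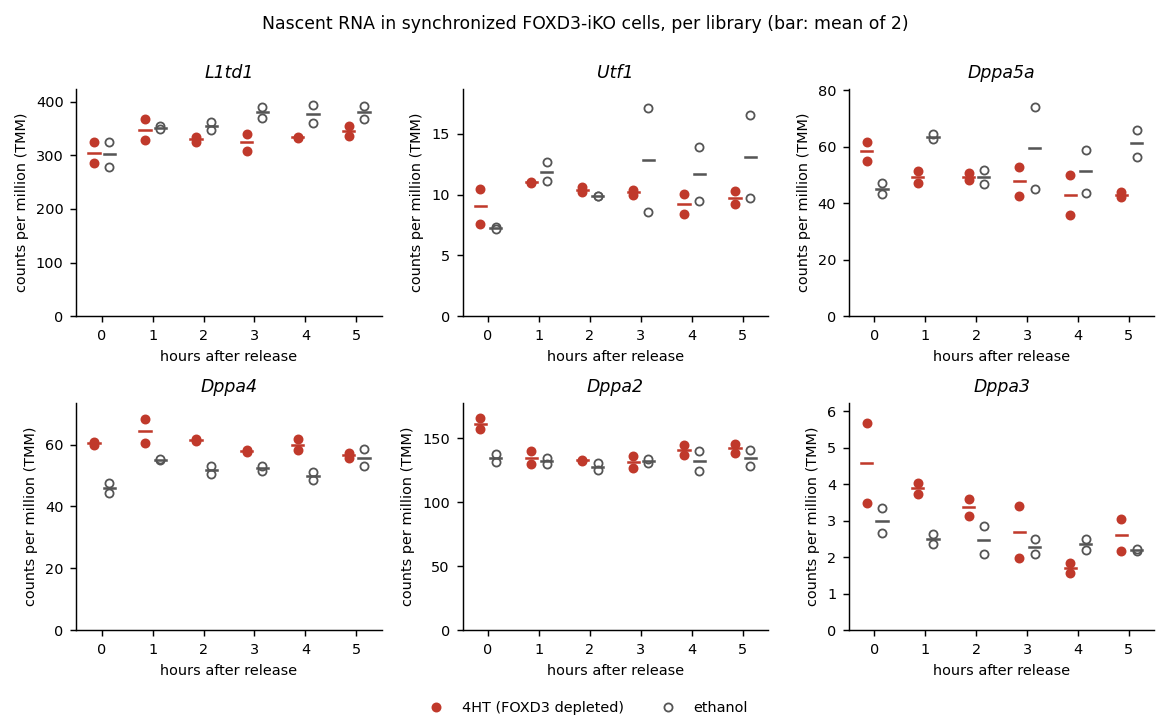
CPM (TMM) of each member in synchronized FOXD3-iKO cells by hours after release, on an axis from 0. Filled points are 4HT libraries, open points ethanol libraries and bars the mean of 2. Dppa4 lies above ethanol at 0 to 4 h, Dppa3 is lowest in 4HT cells at 4 h, and single ethanol libraries at 3 and 5 h stand high for Utf1 and Dppa5a.

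Dppa4 relative to Dppa2 was examined after their values had been seen, because the ratio of 2 genes within a library does not depend on scaling. Permutation tests of the ratio were run, but they pooled libraries of different times and followed a look at the values. The ratio is therefore given as a description, and its SDs pool the times too. In OCT4-tetOff cells the log2 ratio of Dppa4 to Dppa2 counts was -1.72 and -1.77 with DOX at 16 h, against -1.41 and -1.52 with water. At 24 h it was -1.76 and -1.59 with DOX, against -1.41 and -1.25 with water. The 4 DOX libraries lay below the 4 water libraries, at -1.71 ± 0.08 against -1.40 ± 0.11 (SD, n = 4 each). The difference was -0.31.

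In synchronized cells the ratio was the other way round, at -1.22 ± 0.14 with 4HT and -1.35 ± 0.13 with ethanol (SD, n = 12 each). The difference was 0.13, the ranges overlapped, and both 4HT libraries lay above both ethanol libraries at each of 0, 1, 2, 3 and 4 h, though not at 5 h. In cycling FOXD3-iKO cells it was -1.06 ± 0.19 with 4HT and -0.94 ± 0.22 with ethanol (SD, n = 8 each), a difference of -0.12 with overlapping ranges. Both 4HT libraries lay below both ethanol libraries there at 14, 24 and 32 h and overlapped them at 8 h. A ratio does not tell which of the genes moved.

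**Figure D5:**
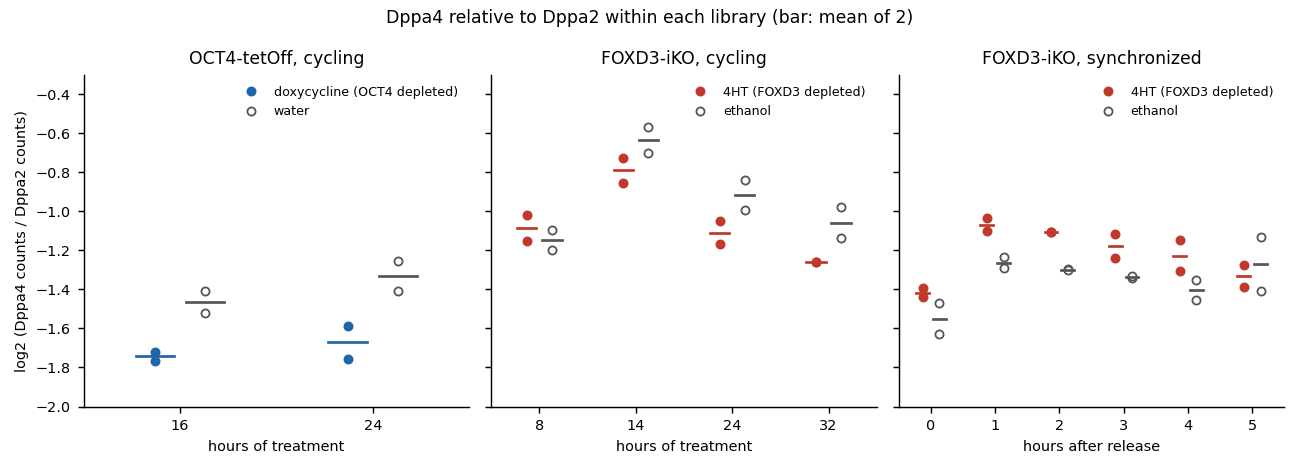
log2 ratio of Dppa4 to Dppa2 counts in each library, by hours of treatment or release. Filled points are DOX or 4HT libraries, open points water or ethanol libraries and bars the mean of 2. DOX libraries lie below water at both times, cycling 4HT libraries below ethanol at 14, 24 and 32 h, and synchronized 4HT libraries above ethanol at 0 to 4 h.

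Morc1 and Ooep, which lie near Dppa2 and Dppa5a, were read beside these members. Morc1, a germline chromatin ATPase, begins 111.513 kb beyond Dppa2 with 3 annotated genes between, and its log2 change with DOX was -1.41 ± 0.13 (adjusted p 8.82e-05, edgeR) at 16 h and -1.57 ± 0.13 (adjusted p 2.11e-05) at 24 h, where Dppa2 was not called. Ooep, an oocyte gene with a KH domain like Dppa5a, lies 7931 bases from Dppa5a with no gene between. Ooep fell with Dppa5a under DOX, by -1.10 ± 0.12 (adjusted p 0.000333, edgeR) at 16 h and -2.27 ± 0.13 (adjusted p 3.47e-06) at 24 h. With 4HT at 32 h Ooep was called lower (log2 change -0.39 ± 0.10, adjusted p 0.0298), while Dppa5a at -0.47 was not. Dppa1, no member here, was higher with DOX at 24 h, with 82 and 50 counts, against 7 and 9 counts with water (log2 change 2.75 ± 0.34, adjusted p 0.000287).

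Other ESC marker transcripts, 16 of 17 tested, gave a background for the falls of Utf1, Dppa5a and L1td1. With DOX 13 were called lower at 16 h and 15 at 24 h, none higher, with median log2 changes of -1.20 and -1.75. Of all genes 8.91% and 18.7% were called lower. The list includes Pou5f1, the gene of the depleted OCT4, which was among those called at both times. Tcl1, a coactivator of AKT, changed by -4.09 ± 0.21 (adjusted p 2.11e-06, edgeR) and Zfp42, the marker Rex1, by -1.79 ± 0.11 (adjusted p 3.67e-06) at 24 h. With 4HT at 32 h 3 of the 16 were called lower and 1 higher, where 4.59% and 4.88% of all genes were. The median was -0.20, and Tcl1 was among those lower at -0.48 ± 0.11 (adjusted p 0.0151, edgeR). Against these medians the log2 changes of Utf1, L1td1 and Dppa5a under DOX were larger, those of Dppa4 and Dppa2 smaller, and no test of that was made.

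Genes linked to the member proteins moved in both directions. Of 12 genes of the two-cell stage that lie downstream of DPPA2 and DPPA4, 7 could be tested in cycling cells. With 4HT 1 was called higher at 24 h and 5 at 32 h, where 0.401% and 4.88% of all genes were called higher. Among the 5 were Zfp750 at 1.61 ± 0.18 (adjusted p 9.14e-05, edgeR) and Zscan4d at 1.24 ± 0.19 (adjusted p 0.00121), while Dppa2 and Dppa4 were not called. With DOX at 24 h Zfp352 was called lower at -2.17 ± 0.48 (adjusted p 0.00686) and none of the 7 higher. In synchronized cells 1 of 10 tested was called higher with 4HT, where 18.6% of all genes were, and the median log2 change was 0.09. Zscan4 and Usp17l genes have near-identical copies, and how the counting treated their shared reads is not known from the labels.

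Of 10 genes linked by protein contact or function, 1 was called higher and 6 lower with DOX at 24 h, where 18.7% of all genes were called lower. Lin28a, whose protein binds L1TD1 in human ESCs, was the one higher, at 2.34 ± 0.14 (adjusted p 4.38e-06, edgeR), while L1td1 fell. Uhrf1, the partner of DPPA3, changed by -0.93 ± 0.10 (adjusted p 0.000164), and Tet2, a DNA demethylase, by -1.27 ± 0.12 (adjusted p 4.45e-05). With 4HT at 32 h Uhrf1 alone of the 10 was called, at -0.43 ± 0.12 (adjusted p 0.0355). In synchronized cells 4 were called higher and 1 lower, a share near that of all genes, of which 37% were called, with Lin28a at -0.45 ± 0.06 (adjusted p 1.32e-05) and Suz12, a Polycomb subunit, at 0.34 ± 0.07 (adjusted p 0.000458).

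Across the 24 group means, each centred within its table, Utf1, L1td1 and Dppa5a were the members most alike. Pearson's r was 0.93 between Utf1 and L1td1, 0.87 between Dppa5a and Utf1 and 0.85 between Dppa5a and L1td1, and 0.68 between Dppa2 and Dppa4. Dppa4 also had an r of 0.56 with Utf1 and 0.54 with L1td1, and Dppa3 of 0.50 with Dppa5a, while the lowest value was -0.13, between Dppa2 and Dppa5a. The points share libraries and depth, and these values are a description. Among 10889 genes the profile nearest to L1td1 was that of Dusp27 (r = 0.99), to Utf1 that of Epha2 (0.96), to Dppa5a that of Ppm1j (0.94) with Ooep close by (0.93), to Dppa2 that of Porcn (0.92) and to Dppa3 that of Wsb1 (0.82). By Spearman's rho the nearest gene was the same for Dppa3 alone of these 5 members.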

How the data were processed

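Whole-number read counts per gene, without any normalization, were deposited by the authors as 3 tables of 48 libraries in all. Per the submitters' processing notes STAR, featureCounts and mm10 were used. Their versions, strandedness and treatment of multiple matches are not given in those sources. Symbols were found for 54723 of 54752 gene IDs. edgeR 4.0.16 (R 4.3.3) was run per table over every group, with TMM scaling, a group-mean design, filterByExpr at a minimum count of 10 and the quasi-likelihood test. Adjusted p-values are edgeR's unless another tool is named, and SE is the absolute log2 change over the square root of F. The scripts were tested on simulated data. The members and lists were chosen with earlier results of these data known. Listed genes were named by smallest p. Replicates differed beyond counting noise, and all were kept. Alternatives were DESeq2 1.42.0, RLE factors, total counts, no filter, compared groups only, a replicate block and leaving out each library. Scaling outside Gm26917 and Gm42418, removal of a gene-length trend, crossed numbers and the Dppa4 to Dppa2 ratio were added after seeing the data. Likeness used log2 CPM (prior count 2). The gene nearest to Dppa4 is not reported here.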

Additional observations from a re-analysis of the deposited data

Results flagged for a closer look

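For 4 members the response to 4HT at 24 h differed from the response to DOX at 24 h in a test of the difference itself. The log2 difference, 4HT response less DOX response, was 4.18 for Utf1, 2.35 for Dppa5a, 2.31 for L1td1 and 0.54 for Dppa4. No member's response passed the test of a difference between times of the same treatment. Groups of 2 libraries cannot be searched for a single library that stands apart.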

How the results depend on the processing

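No call of a member changed direction under any alternative. Of 672 values of members under alternatives that kept all libraries, 634 kept their side of the threshold, 18 lost it and 20 gained it, and of 824 values with 1 library left out 783 kept it, 23 lost it and 18 gained it. With 4HT at 32 h 1 member was called in the reported fit and 2 without the count filter, among 1771 and 2189 genes. No member was called with only the compared groups, a replicate block or total counts outside the ribosomal RNA genes. Those settings called 194, 1555 and 1091 genes in that order. Over the release times together, 1 member was called, among 6566 genes. That member count became 2 without the filter (6496 genes), with a replicate block (7178 genes) or outside the ribosomal RNA genes (7493 genes). With total counts (8206 genes) or with the length trend removed (4632 genes) it was 3. The change of 4HT cells over release went from 1 to 0 with the length trend removed, with only the compared groups or with total counts. All genes called there were 2914, 5518 and 1290 in that order, against 2727 in the reported fit. The change of ethanol cells over release went from 0 to 1 in DESeq2 and without the filter. Genes called there were 4410 and 5952, against 3441 in the reported fit. Ethanol at 32 h against 24 h went from 0 to 1 in DESeq2 (1392 genes) and 3 with the length trend removed (2862 genes). The reported fit called 1006 genes there. The DOX response at 24 h less that at 16 h went from 0 to 2 without the filter, where 457 genes were called, against 0. Leaving out 1 library also moved the number of members called in several comparisons, among them the loss of Dppa4 at 16 h of DOX given above. The number of all genes called moved too, so such refits do not speak of the members alone. Same-numbered libraries did not deviate together in every pair (r from -0.11 to 0.42). Such values do not settle whether the numbers pair them, and the reported fits assumed no pairing. The replicate block moved calls only as given above. With numbers crossed at 16 h of DOX, where r was -0.11, 4 members and 4504 genes were called. Fits with 1 library left in a group take its spread from the other groups. Depth limits Dppa3 in OCT4-tetOff cells and Utf1 after DOX at 24 h. The causes of these changes were not tested.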
